A study of Mus musculus with 8 samples.

Results

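Nitric oxide and cyclic GMP (cGMP) signalling was examined through 8 genes: the synthase adaptor Nos1ap, the synthases Nos1 and Nos3, the soluble guanylyl cyclase subunits Gucy1a3 and Gucy1b3, the cGMP-dependent protein kinases Prkg1 and Prkg2, and the small GTPase Rasd1. The genes were taken by name, as every probe whose gene name in the scanner files equals a member, out of 37074 gene names on the array. They were represented by 20 probes, of which 15, covering all 8 genes, were detected on every array. The tissue was cortex with striatum, from 4 male mice of the inbred strain C57BL/6J (B6), all aged 4 months, and of 4 male mice of the subline BTBRTF/ArtRbrc (BTBR/R), of which replicate 1 was 6 months old and the other 3 were 4 months old. The paper describes no treatment of either strain beyond pentobarbital anaesthesia before decapitation. No animals were pooled, and each mouse was measured on its own 1-colour Agilent array. All 8 arrays shared 1 slide and 1 scan. The B6 arrays lay in slide column 1 and the BTBR/R arrays in slide column 2, which means that effects of strain and of column cannot be told apart. The paper also gives the strains different suppliers and partly different housing, which cannot be told apart from strain either.

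Nitric oxide is a diffusible messenger made from arginine by nitric oxide synthases. In the brain, the neuronal synthase Nos1 is tethered near NMDA receptors by scaffold proteins, and nitric oxide binds soluble guanylyl cyclase, a dimer of an alpha and a beta subunit that makes cGMP, which in turn activates the kinases Prkg1 and Prkg2. Nos1ap competes with the scaffold for Nos1 and can couple Nos1 to Rasd1, a dexamethasone-induced Ras-like protein that nitric oxide modifies on a cysteine.

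Values are given as scaled signals, the log2 processed signal of a probe minus the 75th percentile of its array, and changes as BTBR/R minus B6 on that log2 scale. Strains were compared with limma over all 56605 probes with Benjamini-Hochberg adjustment, and called probes are those with an adjusted p below 0.05 that differed by 2-fold or more. A probe counted as detected when the software marked it well above background. Detection started at a processed signal of 14.5 to 17.8 in B6 mice but of 36.1 to 47.1 in BTBR/R mice. Among all probes, 2.27% were called lower and 20.2% higher in BTBR/R mice, and among the 14874 probes detected on no array 67.7% were called higher. Member probes were therefore counted among those detected on all 8 arrays, where 1.16% of 28547 probes were called lower and 1.04% higher. All 8 striatal projection neuron markers and all 7 cortical projection neuron markers were detected on every array.

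Of the 15 detected member probes, 1 was called lower, a Nos1ap probe, and none was called higher. At an adjusted p below 0.05 with no limit on size, 7 were lower and 0 higher, against 13.9% lower and 13.0% higher among all detected probes. The 7 were the 4 probes of Nos1ap, the 2 detected probes of Gucy1a3 and 1 probe of Prkg1. The remaining 8 detected probes did not pass. The strains did not overlap for 7 of the 15 probes, and this held for 32.6% of all detected probes. The median change of the 15 probes was -0.17, and that of all detected probes was 0.00145.

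**Figure D1:**
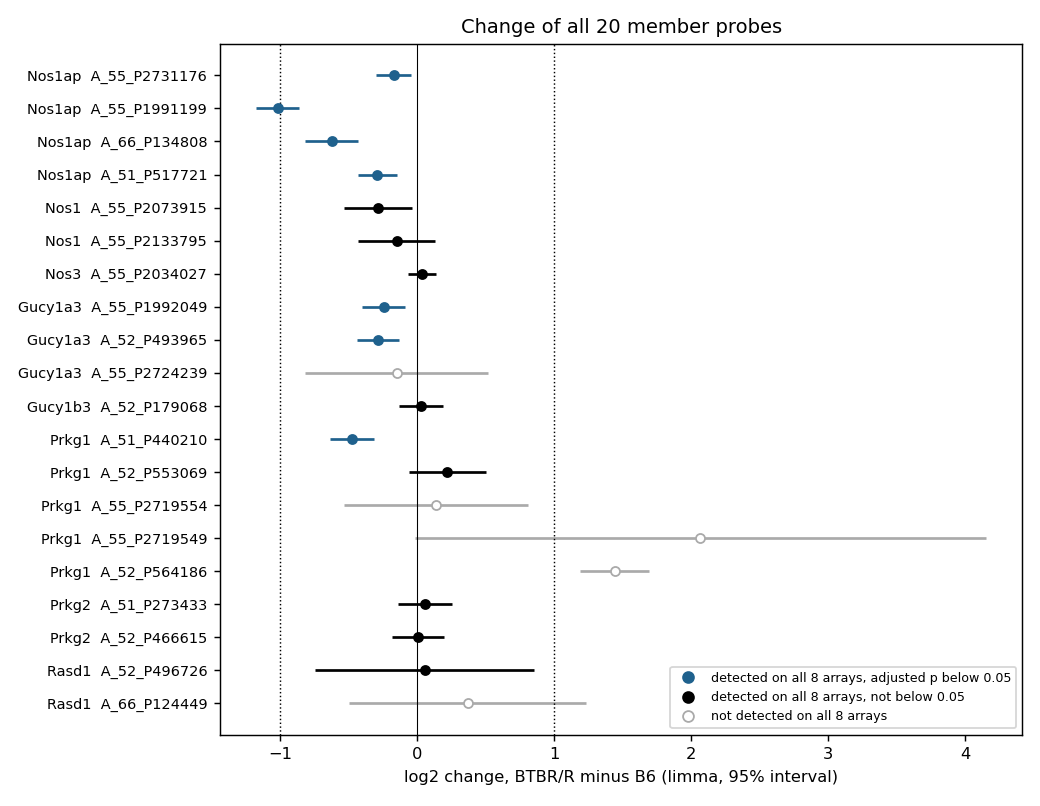
Log2 change (BTBR/R minus B6, horizontal axis) of each of the 20 member probes with its 95% interval from limma. Filled blue points passed an adjusted p of 0.05 and were detected on all 8 arrays, black points were detected but did not pass, open grey points were not detected on every array, and dotted lines mark a 2-fold change. Blue points lie only to the left of 0, and the Nos1ap probe at -1.02 is the one that reaches the left line.

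The 2 largest changes among the 15 member probes detected on all arrays were at Nos1ap, so 30 letters of each Nos1ap probe are shown here, with those of the Rasd1 probes, which were highest in a single B6 mouse. Each probe is 60 bases long, and the letters run from 5′ to 3′ in lower case. Capitals mark the longest run of at least 16 bases that is also held, on either strand, by a probe of another gene on the array. Positions are those of the mm9 build given with the arrays, and all probes lie on the minus strand.
Nos1ap A_51_P517721, chr1:172279588-172305391, bases 1 to 30: accctatctacaggatcttctatgtctctc
Nos1ap A_55_P2731176, chr1:172303055-172303114, bases 19 to 48: gataaatGTCCGAGGCCAGCCTGgtccata
Nos1ap A_66_P134808, chr1:172259305-172259364, bases 1 to 30: ccactccctgggaatgacattctggaattc
Nos1ap A_55_P1991199, chr1:172247741-172247800, bases 1 to 30: agctcatataaatgagtctaagagctatcc
Rasd1 A_52_P496726, chr11:59777222-59777281, bases 1 to 30: gaccttttttgttcaaaagtcaaatcggat
Rasd1 A_66_P124449, chr11:59777013-59777074, bases 31 to 60: aaaaagcgtgtgaAGTTCATCAGCCTGAGA

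Nos1ap was measured at 4 places. The 60 bases of A_51_P517721 map across 25804 bases, so this probe reads an exon junction near the 5′ side of the measured stretch. A_55_P2731176, designed on an Ensembl transcript, lies inside the interval that the junction probe skips, and shares its 16-base run with 2 probes of other genes. Which transcript it reads, and whether transcripts of other genes add to its signal, was not tested. A_66_P134808 and A_55_P1991199 lie farther 3′, the latter being the most 3′ of the 4. No probe of another gene shared a run of 16 bases with the junction probe or with either of the 3′ probes.

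The signal of Nos1ap was lower in BTBR/R mice at every probe, by an amount that differed between probes. Whether the probes match BTBR/R sequence was not tested, for Nos1ap or for any other gene. For the most 3′ probe, A_55_P1991199, the scaled signals of B6 replicates 1 to 4 were 3.03, 3.16, 3.06 and 3.15, and those of BTBR/R replicates 1 to 4 were 2.09, 2.15, 1.93 and 2.15. All B6 mice stood above all BTBR/R mice, with nearly 1 log2 unit between the strains. The change was -1.02 (standard error 0.066, 95% interval -1.17 to -0.86), a 2.02-fold fall (limma adjusted p = 2.76e-05).

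This call lies at the edge of the 2-fold threshold. The change was -0.97 without BTBR/R replicate 3, -0.998 without B6 replicate 2 and -0.90 under spike-in scaling, each just short of 2-fold, with limma adjusted p-values of 0.000189, 0.000164 and 0.000101. Without the older mouse, BTBR/R replicate 1, it was -1.02.

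At A_66_P134808, 11.6 kb upstream of the most 3′ probe, the B6 mice had scaled signals of 1.59, 1.82, 1.66 and 1.81, and the BTBR/R mice 1.04, 1.10, 0.99 and 1.27. The groups did not overlap, and the change of -0.62 (standard error 0.083) corresponds to a 1.54-fold fall (limma adjusted p = 0.000687). The junction probe A_51_P517721 gave 1.09, 1.23, 1.19 and 1.17 in B6 mice and 0.80, 0.90, 0.82 and 0.99 in BTBR/R mice. Its change was -0.29 (standard error 0.061), a 1.22-fold fall (limma adjusted p = 0.00746).

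A_55_P2731176 was the brightest of the Nos1ap probes and changed the least. Its scaled signals were 5.32, 5.28, 5.41 and 5.26 in B6 mice and 5.21, 5.06, 5.15 and 5.16 in BTBR/R mice. The strains were separated by a narrow gap between 5.21 and 5.26. The change was -0.17 (standard error 0.055, limma adjusted p = 0.042), and it no longer passed when B6 replicate 1, 2 or 3 or BTBR/R replicate 2, 3 or 4 was left out. Under spike-in scaling it was -0.06 and the junction probe -0.18, neither of which passed, on a scale where the median change of all detected probes was 0.12.

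The unequal fall along Nos1ap was described within each mouse, by differences between probes chosen after their values were seen. From the junction probe to the most 3′ probe the change became more negative by -0.73 (standard error 0.047), from A_66_P134808 to the most 3′ probe by -0.40 (standard error 0.048), and from the junction probe to A_66_P134808 by -0.33 (standard error 0.045). In each of these 3 comparisons no B6 mouse overlapped a BTBR/R mouse (exact two-sided permutation p = 0.0286, the smallest that 4 against 4 arrays allow). As the pairs were picked by their values, this p is given as a description only. The junction probe and A_55_P2731176 inside the skipped interval differed in change by -0.12 (standard error 0.078, exact permutation p = 0.171). The most 3′ probe and A_55_P2731176 differed the most, by -0.85 (standard error 0.089). These are part of 6 pairs of probes compared in this way. Averaged over its 4 probes, Nos1ap changed by -0.53 (exact two-sided permutation p = 0.0286).

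**Figure D2:**
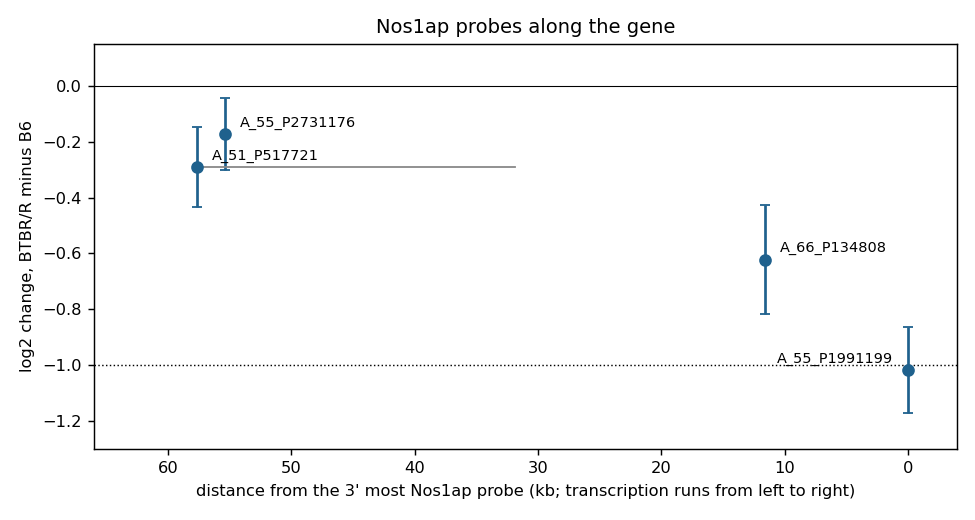
Log2 change (BTBR/R minus B6, vertical axis) of the 4 Nos1ap probes with 95% limma intervals, against the distance of each probe in kb from the most 3′ probe, with transcription running from left to right. The grey line spans the interval between the ends of the junction probe, and the dotted line marks a 2-fold fall. The change goes from -0.29 at the junction probe to -0.62 and -1.02 at the 3′ probes.

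Within 1 Mb of the Nos1ap probes, 49 probes of 33 other genes were detected in every mouse, with 5 lower and 3 higher at an adjusted p below 0.05, where 13.9% and 13.0% of all detected probes were. A pair of them was called, and they are named after their values were seen. Ddr2, a collagen receptor kinase 345 kb away, changed by -1.84, and Dusp12, a phosphatase 505 kb away, by 1.05.

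By scaled signal over the 8 arrays, the probes of other genes most like the most 3′ Nos1ap probe, among 28547 detected probes, were those of Atp8a1 (Pearson r = 0.997), an unnamed transcribed interval, Rnf157 (0.997), Gm13298 (0.996) and Osbpl10 (0.996). Their own changes ran from -2.70 for Osbpl10 to -0.35 for Rnf157. Those most like the brightest Nos1ap probe were an unnamed Ensembl transcript (r = 0.991), an unnamed transcribed interval (0.991), Phactr1 (0.990), Ctnnal1 (0.980) and Gm1305 (0.978). The 8 points of each correlation fall into 2 strains.

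Nos1, the neuronal synthase, was measured by 2 dim probes on chromosome 5, and neither passed. For A_55_P2073915 (chr5:118404306-118404365) the B6 mice had scaled signals of -2.84, -3.00, -2.72 and -3.22 and the BTBR/R mice -3.27, -3.22, -3.20 and -3.24. B6 replicate 4 lay among the BTBR/R mice and the other 3 B6 mice lay above them. The change was -0.29 (standard error 0.11, limma adjusted p = 0.0664), and without B6 replicate 4 it was -0.38 (limma adjusted p = 0.00904). It was smaller without B6 replicate 3 (-0.21), under spike-in scaling (-0.17) and with normexp correction (-0.14), and did not pass under any of these.

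The other Nos1 probe, A_55_P2133795 (chr5:118402831-118402890), ran from -3.28 to -3.04 in B6 mice and from -3.52 to -3.03 in BTBR/R mice, and the strains overlapped. Its change was -0.15 (95% interval -0.43 to 0.13, limma adjusted p = 0.371). With normexp background correction it was 0.09. It was -0.08 without BTBR/R replicate 1 and -0.25 without BTBR/R replicate 2, and passed in neither case. These signals lie close to the BTBR/R detection limit, a scaled -3.97 to -3.55. Averaged over both probes, Nos1 changed by -0.22 (exact two-sided permutation p = 0.143).

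Nos1 in the forebrain is most abundant in a small class of interneurons that also make somatostatin and neuropeptide Y. Of 5 markers of these cells (Sst, Npy, Chodl, Tacr1, Pnoc), all were detected, 0 were lower and 1 was higher, the substance P receptor Tacr1, by 0.34 (limma adjusted p = 0.00286), where 14.4% of all genes were lower and 13.9% higher. Their summed signal relative to the 75th percentile ranged from 85.8 to 90.9 in B6 mice and from 89.2 to 95.04 in BTBR/R mice, most of it from Sst. Their mean scaled signal, which weights the 5 genes equally, was 0.88 to 1.001 in B6 mice and 1.07 to 1.16 in BTBR/R mice, with no overlap. In tissue RNA of this kind, fewer cells of a type and less RNA per cell cannot be told apart. The probes most like A_55_P2073915 were those of Actg1 (Pearson r = 0.967), Myl6b (0.964), Wbp1 (0.959), Tgfbi (0.958) and Myo6 (0.955), none of which passed the strain comparison.

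Nos3, the endothelial synthase, did not pass at its single probe (chr5:23890038-23890097). The scaled signals were 1.61, 1.64, 1.55 and 1.63 in B6 mice and 1.62, 1.67, 1.68 and 1.62 in BTBR/R mice. The spread within each strain was small, and the change of 0.04 had a 95% interval of -0.06 to 0.14 (limma adjusted p = 0.528). Of 9 endothelial markers, 3 were lower (Cldn5, Kdr and Ly6c1), 0 were higher and 6 did not pass, where 14.4% of all genes were lower. Their summed signal was 33.5 to 38.3 in B6 mice and 27.5 to 30.6 in BTBR/R mice. The part of endothelial cell content in the Nos3 values was not tested.

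**Figure D3:**
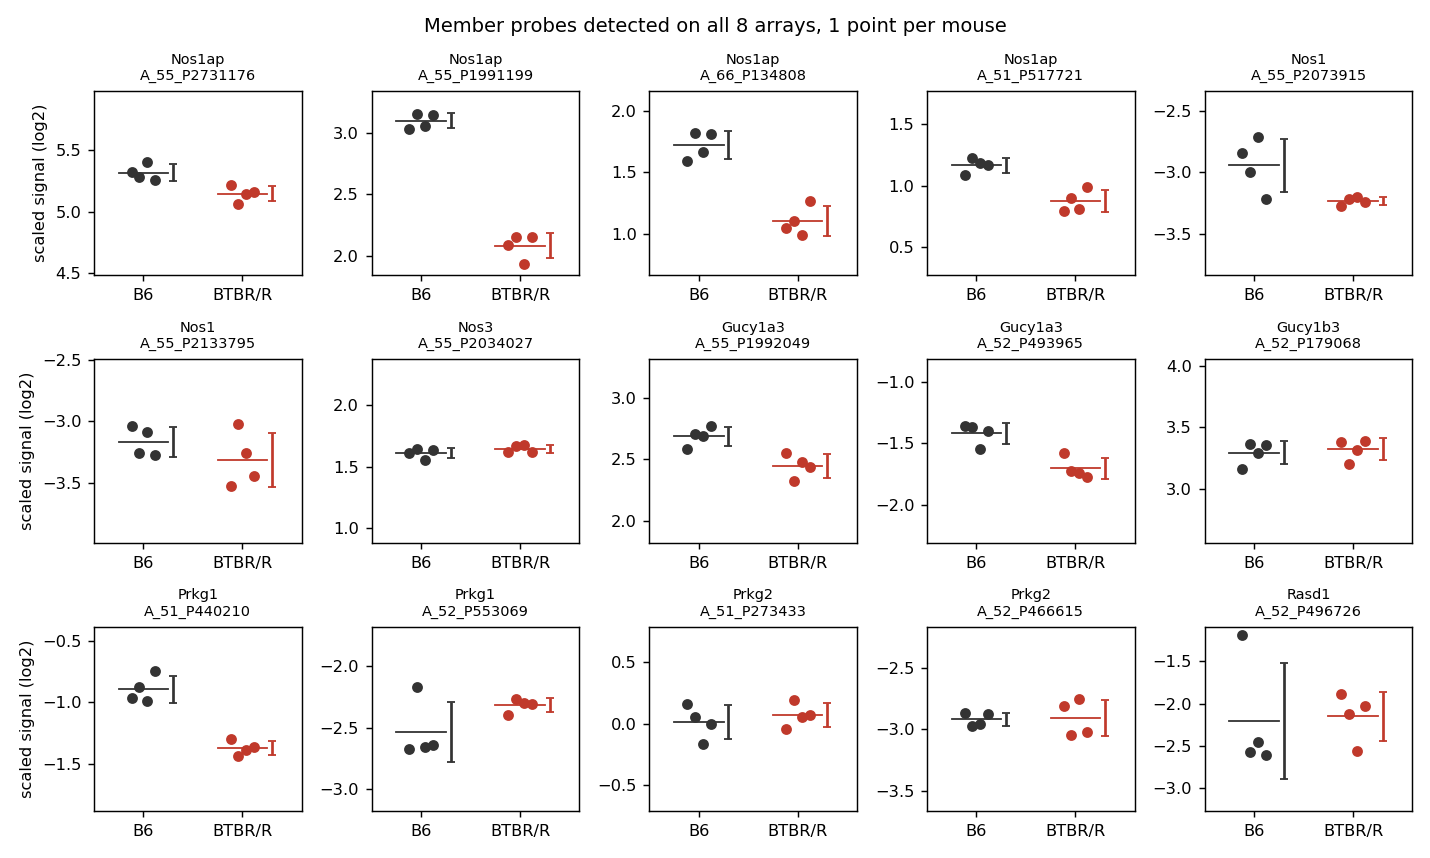
Scaled signal (log2, vertical axis) of the 15 member probes detected on all 8 arrays, with 1 point per mouse, a line at the mean and a bar of ± 1 SD for each strain (n = 4 each). Each panel has a vertical axis of its own. The 4 Nos1ap panels, both Gucy1a3 panels and Prkg1 A_51_P440210 show no overlap between the strains, and B6 replicate 1 stands alone in the Rasd1 panel.

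Of the subunits of soluble guanylyl cyclase, the alpha subunit was lower and the beta subunit did not pass, and the difference between them was not tested. Gucy1a3, which RefSeq now names Gucy1a1, encodes the alpha subunit and was lower at both detected probes. At A_55_P1992049 (chr3:81896409-81896468) the scaled signals were 2.59, 2.71, 2.69 and 2.78 in B6 mice and 2.55, 2.32, 2.48 and 2.44 in BTBR/R mice. The strains did not overlap, with the lowest B6 mouse at 2.59 and the highest BTBR/R mouse at 2.55. The change was -0.24 (standard error 0.067, limma adjusted p = 0.0243).

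At A_52_P493965 (chr3:81911061-81911120) the B6 mice had -1.36, -1.37, -1.55 and -1.40 and the BTBR/R mice -1.58, -1.72, -1.74 and -1.77, a change of -0.28 (standard error 0.067, limma adjusted p = 0.0122). Neither change reached 2-fold, at 1.18-fold and 1.22-fold lower. Neither passed under spike-in scaling, where the changes were -0.13 and -0.17, and with a replicate block A_55_P1992049 had an adjusted p of 0.0925. Nor did A_55_P1992049 pass without B6 replicate 2, 3 or 4 or BTBR/R replicate 4 (limma adjusted p from 0.0561 to 0.0614). The other Gucy1a3 probe, A_55_P2724239, was detected on 3 B6 arrays and no BTBR/R array, with a change of -0.15 (limma adjusted p = 0.716) and B6 signals below the BTBR/R detection limit, which allow no fold.

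Gucy1b3, now Gucy1b1, encodes the beta subunit and lies beside Gucy1a3 on chromosome 3. Its probe (chr3:81836142-81836201) gave 3.17, 3.36, 3.29 and 3.36 in B6 mice and 3.38, 3.20, 3.32 and 3.39 in BTBR/R mice. The strains overlapped throughout, and the change was 0.03 (95% interval -0.13 to 0.19, limma adjusted p = 0.783). Striatal projection neurons, which are rich in soluble guanylyl cyclase, had 0 of 8 markers lower and 0 higher. Over all genes, 14.4% were lower and 13.9% higher. The summed marker signal was 129 to 138 in B6 mice and 123 to 142 in BTBR/R mice.

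Of the kinases, Prkg1 passed at 1 of its 2 probes detected on all arrays. A_51_P440210 (chr19:30643563-30643622) was lower in BTBR/R mice, with scaled signals of -0.97, -0.88, -0.99 and -0.74 in B6 mice and -1.30, -1.44, -1.39 and -1.36 in BTBR/R mice. The strains did not overlap. The change was -0.48 (standard error 0.068, limma adjusted p = 0.000977), a 1.39-fold fall, and it passed under all alternatives tried.

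A_52_P553069 (chr19:30639657-30639716), which lies farther 3′ on Prkg1, did not pass. Its values were -2.67, -2.17, -2.66 and -2.64 in B6 mice and -2.40, -2.26, -2.30 and -2.31 in BTBR/R mice. B6 replicate 2 was above every BTBR/R mouse and the other 3 B6 mice were below all of them. The change was 0.22 (95% interval -0.06 to 0.50, limma adjusted p = 0.188), 0.34 without B6 replicate 2 (limma adjusted p = 0.00296) and 0.06 with normexp correction (limma adjusted p = 0.583). The changes of these 2 probes, a pair chosen after its values were seen, differed by -0.70 within mice (standard error 0.14), which is given as a description.

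The other 3 Prkg1 probes were close to background. A_52_P564186, detected on no array, was called higher in the fit over all probes (1.44, limma adjusted p = 2.76e-05). Its change was only 0.022 with normexp correction and 0.06 with quantile normalization. Both groups lie below the detection limit, so no fold is given. A_55_P2719549 was detected on BTBR/R replicate 2 alone, at a scaled -1.89 against -5.97 to -5.62 in the other BTBR/R mice and -7.03 to -6.53 in B6 mice, and its change of 2.07 did not pass (limma adjusted p = 0.106). Without that mouse it was 1.10 and passed (limma adjusted p = 0.00157), with no array on which the probe was detected. No fold is given for it. A_55_P2719554, detected on 3 B6 arrays and no BTBR/R array, changed by 0.14 (limma adjusted p = 0.733). Mural and smooth muscle cells, another site of Prkg1, had 1 of 7 detected markers lower and 0 higher, a share near the 14.4% lower over all genes, with summed signals of 22.4 to 24.1 in B6 mice and 21.7 to 24.1 in BTBR/R mice.

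Prkg2, the membrane-bound kinase of the pair, did not pass the comparison. Both probes map across exon junctions on chromosome 5. A_51_P273433 gave 0.16, 0.06, -0.17 and 0.00 in B6 mice and -0.04, 0.20, 0.05 and 0.07 in BTBR/R mice, a change of 0.06 (95% interval -0.14 to 0.26, limma adjusted p = 0.628). A_52_P466615 ran from -2.97 to -2.87 in B6 mice and from -3.05 to -2.75 in BTBR/R mice, a change of 0.00837 (95% interval -0.18 to 0.20, limma adjusted p = 0.946).

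Rasd1 varied more between B6 mice than any other member probe detected on all 8 arrays. At A_52_P496726 the scaled signals were -1.19, -2.57, -2.46 and -2.62 in B6 mice and -1.89, -2.12, -2.57 and -2.03 in BTBR/R mice. B6 replicate 1 was the highest of all 8 mice and the other 3 B6 mice were among the lowest 4. The change was 0.06 (95% interval -0.74 to 0.85, limma adjusted p = 0.914).

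The second Rasd1 probe, A_66_P124449, was detected on all arrays but that of BTBR/R replicate 3. It gave -2.25, -3.58, -3.78 and -3.97 in B6 mice and -2.91, -2.89, -3.35 and -2.94 in BTBR/R mice, so B6 replicate 1 was again the highest and the other 3 B6 mice were the lowest. The change was 0.37 (95% interval -0.49 to 1.24, limma adjusted p = 0.467). Without B6 replicate 1 it was 0.75 (limma adjusted p = 0.00921), while A_52_P496726 then changed by 0.40 and did not pass (limma adjusted p = 0.11). For A_66_P124449, whether the strains differed thus rested on that mouse.

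B6 replicate 1 also stood apart in markers of the thalamus, a region next to the dissected tissue. All 6 thalamus markers (Tcf7l2, Prkcd, Lef1, Plekhg1, Slc17a6, Rgs16) were higher in it than in any other B6 mouse, and their summed signal was 14.3 against 4.82 to 5.34. Among BTBR/R mice, replicate 2 had the highest level of all 6, at 9.62 against 5.07 to 5.76. These were also the mice with the highest Prkg2 signal of their strain at A_51_P273433, 0.16 and 0.20, while at A_52_P466615 BTBR/R replicate 2 was the lowest of its strain (-3.05) and B6 replicate 1 was level with replicate 4 (both -2.87). In Rasd1, BTBR/R replicate 2 was not the highest of its strain at the first probe, and at the second it lay at -2.89 beside -2.91 in the next mouse. Markers of the choroid plexus were likewise highest in these mice, with a summed signal of 41.3 in B6 replicate 1 against 2.70 to 32.3 in the other B6 mice and of 25.7 in BTBR/R replicate 2 against 6.16 to 22.02. The part of RNA from these regions in the Rasd1 and Prkg2 values was not tested.

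Rasd1 is induced by glucocorticoids and by light or neuronal activity in some brain cells, so its values were set beside such genes. Of 12 immediate early genes, 9 were higher and 0 lower in BTBR/R mice, where 13.9% of all genes were higher and 14.4% lower. Their mean scaled signal was 2.44 to 2.70 in BTBR/R mice and 0.68 to 1.98 in B6 mice. B6 replicate 1, highest in Rasd1, had the lowest immediate early gene level of the 8 mice (0.68). Of 9 glucocorticoid-induced genes, 4 were higher (Per1, Zbtb16, Errfi1 and Cdkn1a), 1 was lower (Tsc22d3) and 4 did not pass, beside the same shares over all genes. The mean scaled signal of that list was 1.93 to 2.09 in B6 mice, with B6 replicate 1 at 1.94, and 1.98 to 2.35 in BTBR/R mice.

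**Figure D4:**
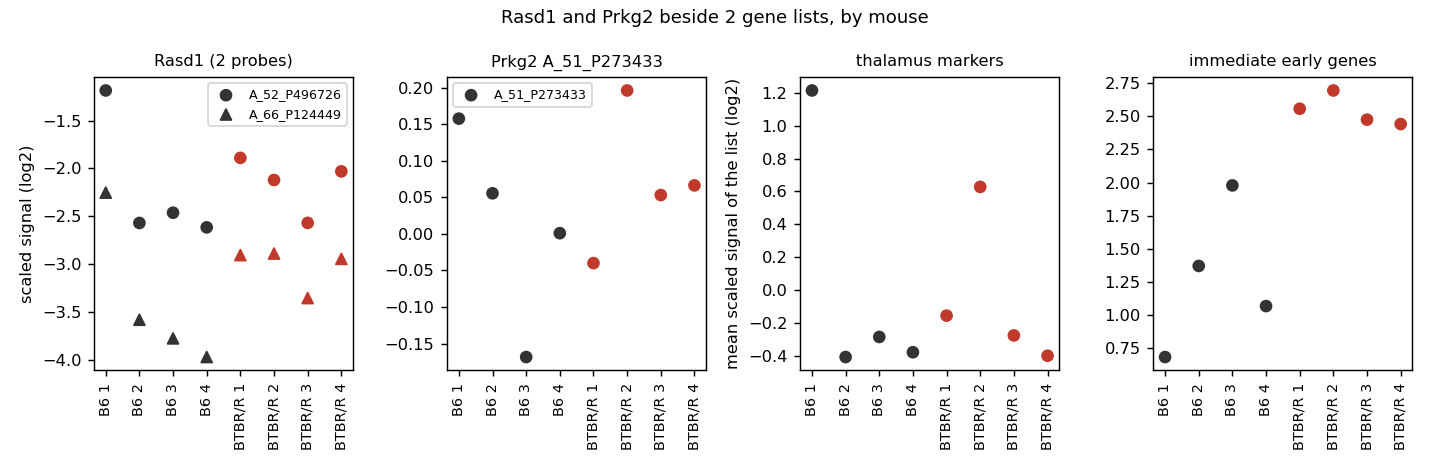
Scaled signal (log2) of the 2 Rasd1 probes and of Prkg2 A_51_P273433, and the mean scaled signal of 6 thalamus markers and of 12 immediate early genes, with 1 point per mouse (B6 black, BTBR/R red) and a vertical axis of its own in each panel. B6 replicate 1 is highest for Rasd1 and for the thalamus markers and lowest for the immediate early genes (0.68).

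Correlated over the 8 arrays with Rasd1 A_52_P496726, the most similar detected probes were an unnamed transcribed interval (Pearson r = 0.938), Cep350 (0.934), P3h4 (0.934), Men1 (0.932) and Pdlim5 (0.930). B6 replicate 1 lies apart from the other 7 points of these correlations, and none of the 5 probes passed the strain comparison.

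Around the 8 members, 71 further genes of the pathway were listed by role, of which 54 had a probe detected on all 8 arrays. By their brightest detected probe, 9 of the 54 were lower (16.7%) and 8 higher (14.8%) at an adjusted p below 0.05. These shares lie near those over 18857 genes, 14.4% lower and 13.9% higher, which also stand beside the counts of each list below. Of the 54, 2 were called lower and 0 higher, where 1.16% and 1.04% of all detected probes were. For Nos1ap, Gucy1a3 and Prkg1 the brightest detected probe was lower, and for the other 5 members it did not pass.

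**Figure D5:**
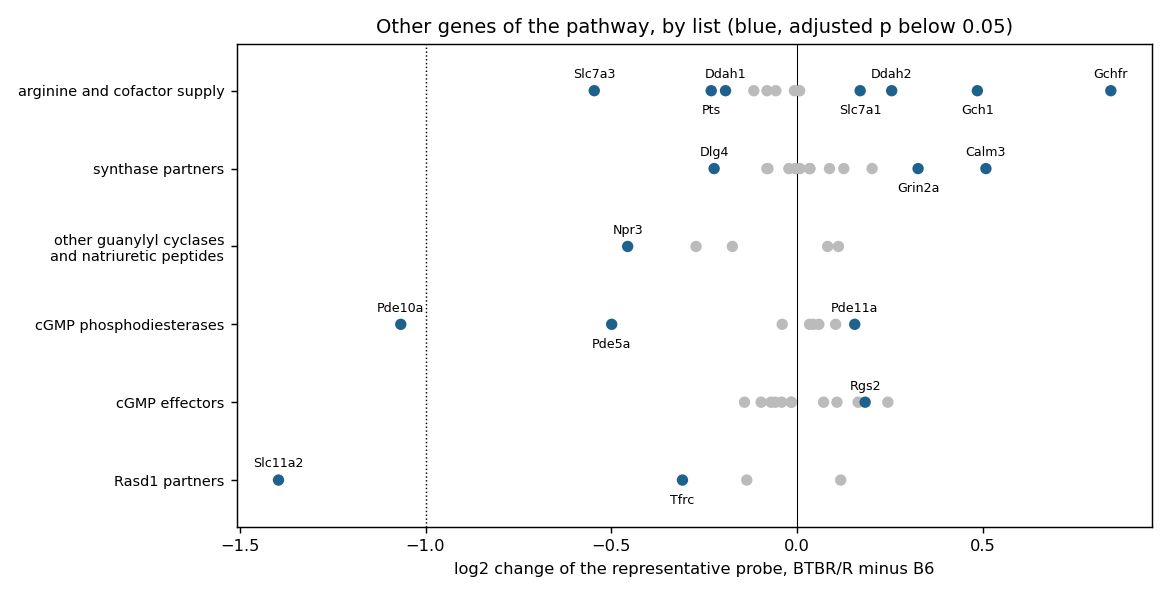
Log2 change (BTBR/R minus B6, horizontal axis) of the brightest detected probe of each of 54 pathway genes, grouped by role on the vertical axis. Blue points passed an adjusted p of 0.05 and are named, grey points did not pass, and the dotted line marks a 2-fold fall. Only Slc11a2 and Pde10a lie beyond the line.

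In the supply of arginine and of tetrahydrobiopterin, the cofactor of the synthases, 3 of 12 detected genes were lower and 4 higher (median change -0.03). Gch1, the rate-limiting enzyme of tetrahydrobiopterin synthesis, rose by 0.49 (standard error 0.099, limma adjusted p = 0.00632), and its feedback regulator Gchfr rose by 0.84 (standard error 0.17, limma adjusted p = 0.00601). Both probes are dim, and with normexp correction the rises were 0.27 and 0.49, which still passed. Slc7a3, a cationic amino acid transporter, changed by -0.55 (limma adjusted p = 0.00365). Ddah2, which breaks down an endogenous synthase inhibitor, rose by 0.25 (limma adjusted p = 0.017) but did not pass with a replicate block (limma adjusted p = 0.0776). The other 3 genes of this group that passed had smaller changes and are named here after their values were seen. Ddah1, which acts as Ddah2 does, changed by -0.19 at its brightest probe (limma adjusted p = 0.0356) and by -0.0427 at another, Slc7a1, another cationic amino acid transporter, by 0.17 (limma adjusted p = 0.0158) and Pts, a further enzyme of tetrahydrobiopterin synthesis, by -0.23 (limma adjusted p = 0.0251). Nos2, the inducible synthase, changed by -0.0068 and did not pass (limma adjusted p = 0.959).

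Among 13 detected partners of the synthases, 1 was lower and 2 were higher (median change 0.03). Calm3, one of the genes for calmodulin, which activates the synthases, rose by 0.51 (limma adjusted p = 0.000111), while Calm2, which encodes the same protein, changed by -0.08 and did not pass. Dlg4, the scaffold with which Nos1ap competes for Nos1, changed by -0.22 (limma adjusted p = 0.0315), with other probes at -0.28 and 0.16, and did not pass under spike-in scaling, a floor at the detection limit or a replicate block or when B6 replicate 2, 3 or 4 or BTBR/R replicate 3 was left out. Grin2a, an NMDA receptor subunit, changed by 0.33 at its brightest probe (limma adjusted p = 0.0276) and by -0.23 at both other probes. The brightest probe did not pass with median scaling, the floor or the replicate block, or without B6 replicate 2 or BTBR/R replicate 1, 3 or 4.

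Of other guanylyl cyclases and natriuretic peptides, 5 of 13 genes were detected and 1 was lower, the clearance receptor Npr3 (-0.46, limma adjusted p = 0.0102), which did not pass under spike-in scaling (-0.34, limma adjusted p = 0.0713). Gucy1a2, the other alpha subunit of soluble guanylyl cyclase in brain, changed by 0.11 and did not pass (limma adjusted p = 0.211). Among 8 phosphodiesterases that break down cGMP, 2 were lower and 1 higher. Pde10a, which is most abundant in striatal projection neurons, fell 2.09-fold (-1.07, standard error 0.055, limma adjusted p = 2.49e-05), and by less than 2-fold under spike-in scaling (-0.95). Pde5a changed by -0.50 (limma adjusted p = 9.67e-05) and Pde11a by 0.16 (limma adjusted p = 0.0476). Pde11a did not pass with normexp correction, median scaling, scaling by detected probes, the floor, limma's trend and robust options or the replicate block, or when any of 6 single mice was left out.

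Downstream of cGMP, 0 of 12 detected effectors were lower and 1 was higher, Rgs2, a regulator of G protein signalling that Prkg1 phosphorylates (0.18, limma adjusted p = 0.0191). It did not pass with a replicate block (limma adjusted p = 0.0751) or without B6 replicate 4 (0.0507). Over all genes, 14.4% were lower and 13.9% higher, beside both the effectors and 4 genes that act with Rasd1. Of these 4, 2 were lower. Slc11a2, the divalent metal transporter in the iron uptake route of Rasd1, fell 2.63-fold at its brightest probe (-1.40, standard error 0.079, limma adjusted p = 2.76e-05), with other detected probes at -0.87 and -0.24. Tfrc, the transferrin receptor, changed by -0.31 at its brightest probe (limma adjusted p = 0.00817) and by -0.15 at another. The brightest probe did not pass under spike-in scaling (-0.19, limma adjusted p = 0.0702) or with a replicate block (0.0518). Acbd3, the adaptor that joins Rasd1 to Slc11a2, changed by 0.12 and did not pass (limma adjusted p = 0.0746).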

How the data were processed

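The authors measured each spot with Agilent Feature Extraction 10.7.3.1, the version in the submitters' processing notes, and deposited spot intensities (background-subtracted processed signal), flags for control, outlying and well-above-background spots, and log2 values made with GeneSpring, which were used as an alternative. Here, control and outlying spots were left out, replicate spots averaged, and 56605 probes scaled by the 75th percentile of each array, 535 to 589. Strains were compared with limma 3.58.1 (lmFit, eBayes) in R 4.3.3, and tables and plots were made with matplotlib 3.10.9, pandas 2.3.3, numpy 2.4.6 and scipy 1.17.1 under Python 3.11.15. On simulated data for this comparison over 56605 probes, the calls held 176 of the 200 probes that had been changed (88%) and 9 that had not. A gene of a list was represented by its brightest probe detected on all 8 arrays. Every member probe was described, and from each pathway list the genes with an adjusted p below 0.05, at most the 4 with the largest change, with further listed genes beside them for their role. For likeness, the 5 genes with the highest Pearson r were taken. A few genes of the pathway are not reported here. The members and lists were chosen with earlier results of these data known. Precision is limited by there being 4 arrays per strain. Deposited annotation gave gene names and mm9 positions, and RefSeq accessions of all 8 members were matched to the GRCm38.p6 table, which was used for symbols only. Whether probes lie in coding or untranslated sequence was not analysed here. Same-numbered mice did not deviate together (r from -0.07 to 0.16), so the numbers were not taken to pair them.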

Additional observations from a re-analysis of the deposited data

Results flagged for a closer look

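Of the 40 strain groups formed by 20 member probes in 2 strains, 4 held a mouse whose gap to its nearest neighbour was a large share of the range of the group, where chance flags about 1 in 20 groups. These were Rasd1 A_52_P496726 in B6 replicate 1 (highest, gap 0.893 of the range), Rasd1 A_66_P124449 in BTBR/R replicate 3 (lowest, 0.881, on the array where it was not detected), Prkg1 A_52_P553069 in B6 replicate 2 (highest, 0.937) and Prkg1 A_55_P2719549 in BTBR/R replicate 2 (highest, 0.915, the only array where it was detected).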

How the results depend on the processing

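Over the 15 member probes detected on all 8 arrays, the number called lower, 1, fell to 0 under spike-in scaling. It ranged from 0 to 1 when single mice were left out. The number lower at an adjusted p below 0.05, 7, fell to 3 under spike-in scaling, ranged from 5 to 7 without single mice and was 5 with a replicate block. The number higher, 0, was 1 without B6 replicate 2 (range 0 to 1), and none of these 15 probes was called higher under any alternative. Nos1ap A_55_P2731176 did not pass without B6 replicate 1, 2 or 3 or BTBR/R replicate 2, 3 or 4, with a range of -0.19 to -0.14, nor with quantile normalization, a floor at the detection limit or the replicate block. Signs turned only where no change passed. Nos1 A_55_P2133795 (0.094) and Gucy1a3 A_55_P2724239 (0.15) turned with normexp correction, Gucy1b3 (-0.00061) and Prkg2 A_52_P466615 (-0.0197) with median scaling, and the latter also with quantile normalization (-0.0244) and scaling by detected probes (-0.0039). Without single mice the ranges that cross 0 were -0.35 to 0.12 for Gucy1a3 A_55_P2724239, -0.0158 to 0.0683 for Gucy1b3, -0.12 to 0.32 for Prkg1 A_55_P2719554, -0.0025 to 0.11 and -0.0434 to 0.0552 for the Prkg2 probes, and -0.0800 to 0.40 for Rasd1 A_52_P496726. The pathway counts, 9 lower and 8 higher, were 4 and 13 under spike-in scaling and 5 and 3 with the replicate block, and 5 were higher with median scaling, alternatives added after the data were seen. The cause of these moves was not tested. Signal over background limits Nos1, Gch1, Gchfr and the dim Prkg1 and Gucy1a3 probes.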
